A study of Mus musculus with 12 samples.

Results

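Vimentin and 9 keratin genes were followed across cultured mouse endometrial cells and endometrial cancer lines. The set was fixed by gene name and held Krt5, Krt7, Krt8, Krt14, Krt17, Krt18, Krt19, Krt23, Krt80 and Vim, 10 of the 55385 genes in the deposited tables, each matched through its Ensembl identifier. All cells were from the strain C57BL/6. HPmECC and mECC are endometrial cancer cell lines, and the third group, called normal below, is normal endometrium in primary culture; each group had 4 RNA sequencing libraries. By the design text part of the cancer cells overexpress Myc, without a label naming the line, and the title codes WT for HPmECC, DM for mECC and B6 for normal are not explained. Each line is a single cell line. Whether the libraries within a group stem from different dishes or mice is not stated, so p-values here reflect only library-to-library spread, which may be technical.

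Keratins and vimentin build intermediate filaments, the rope-like part of the cytoskeleton that gives cells mechanical strength. Keratin filaments form only when a type I keratin pairs with a type II keratin, and they attach to desmosomes at cell contacts. Of the genes followed here, Krt14, Krt17, Krt18, Krt19 and Krt23 encode type I keratins and Krt5, Krt7, Krt8 and Krt80 type II keratins. Krt8 with Krt18 is the basic pair of simple (single-layered) epithelia such as the endometrial lining, where Krt7 and Krt19 are also made. Krt5 with Krt14 marks the basal layer of stratified epithelia. Vim encodes vimentin, a type III filament protein that assembles with itself and is typical of stromal and other mesenchymal cells. Loss of keratins with a gain of vimentin is a textbook mark of epithelial cells turning mesenchymal.

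Library totals ran from 16332060 to 26873582 counts. TPM (transcript abundance scaled to transcript length and to the same sum in each library) was used for levels and for comparing genes with each other, and edgeR's quasi-likelihood test on counts for differences, with p-values adjusted over all 15283 genes tested. Counts were scaled with TMM factors, which assume that most genes do not differ, and log2FC below is the log2 fold change of the first-named group over the second. A gene was called at an adjusted p under 0.05. Epithelial markers of the endometrium were uneven across groups: the 12 markers summed to 6.98 to 8.83 CPM (counts scaled to a fixed library total) in HPmECC, 409 to 422 CPM in mECC and 4958 to 5377 CPM in normal cells, and the Müllerian factor gene Sox17 had 0 counts in HPmECC. Of these 12 genes, 0 were higher and 10 lower in HPmECC than in mECC, where 33.8% of all tested genes were higher and 34.5% lower. In mECC against normal cells 1 (Foxa2, 14.6 against 1.52 CPM) was higher and 11 lower (42.1% and 44.2% of all tested genes). In HPmECC against normal cells 0 were higher and 11 lower (43.0% and 43.3%). Ltf and Msx1 passed the filter on low counts only through the normal libraries, so they could only be lower in the lines. Wnt7a and Sox17 had no HPmECC library over the filter's cutoff, so they could only be lower in HPmECC than in either other group. The normal cultures also held transcripts of other cell types, several of which express vimentin or simple keratins themselves. Fibroblast and stroma markers (8 genes) summed to 2524 to 2826 CPM in HPmECC, 3142 to 3619 CPM in mECC and 1537 to 1940 CPM in normal cells, with Thy1 at 0 in mECC. Col1a1 made up most of that sum: the other 7 genes summed to 563 to 635 CPM in HPmECC, 350 to 385 CPM in mECC and 375 to 470 CPM in normal cells. In each line 3 of the 8 were higher and 5 lower than in normal cells (42.1% and 44.2% of all tested genes in mECC, 43.0% and 43.3% in HPmECC). Thy1 passed the filter only through the normal libraries, so it could only be lower in the lines. Hand2 had no HPmECC library over the filter's cutoff, so it could only be lower in HPmECC. Mesothelium markers (7 genes) summed to 47.6 to 53.1 CPM in HPmECC, 53.7 to 59.3 CPM in mECC and 475 to 527 CPM in normal cells, with Upk1b at 0 in both lines, Wt1 at 0 in mECC, and Upk3b, Lrrn4 and Nkain4 at 0 in HPmECC. Msln, at 384 CPM, made up most of the normal sum. Of the 6 tested, 1 (Bnc1, 41.1 against 36.8 CPM) was higher and 5 lower in HPmECC than in normal cells (43.0% and 43.3% of all tested genes). In mECC 0 were higher and 6 lower (42.1% and 44.2%). Upk3b, Upk1b, Wt1 and Lrrn4 passed the filter only through the normal libraries, and Nkain4 was not tested. Smooth muscle markers (8 genes) summed to 313 to 363 CPM in HPmECC, 151 to 156 CPM in mECC and 2689 to 3162 CPM in normal cells, with none at 0. Endothelium markers (7 genes) summed to 16.7 to 18.0 CPM in HPmECC, 6.85 to 8.14 CPM in mECC and 114 to 126 CPM in normal cells, with Cdh5, Tek and Tie1 at 0 in HPmECC. Tie1 held only 14 counts in normal cells, and Tie1 and Pecam1 were not tested. Of the 5 tested, 1 (Egfl7, 10.7 against 4.95 CPM) was higher and 4 lower in HPmECC than in normal cells (43.0% and 43.3% of all tested genes). In mECC 0 were higher and 5 lower (42.1% and 44.2%). Cdh5, Tek and Esam passed the filter only through the normal libraries. Leukocyte markers (8 genes) summed to 17.4 to 20.1 CPM in HPmECC, 10.99 to 13.9 CPM in mECC and 248 to 264 CPM in normal cells, with Tyrobp at 0 in both lines, Ptprc at 0 in HPmECC and Cd52 at 0 in mECC. The part of these cells in the differences below was not tested, and in bulk RNA fewer cells of a type and less RNA per cell cannot be told apart.

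**Figure D1:**
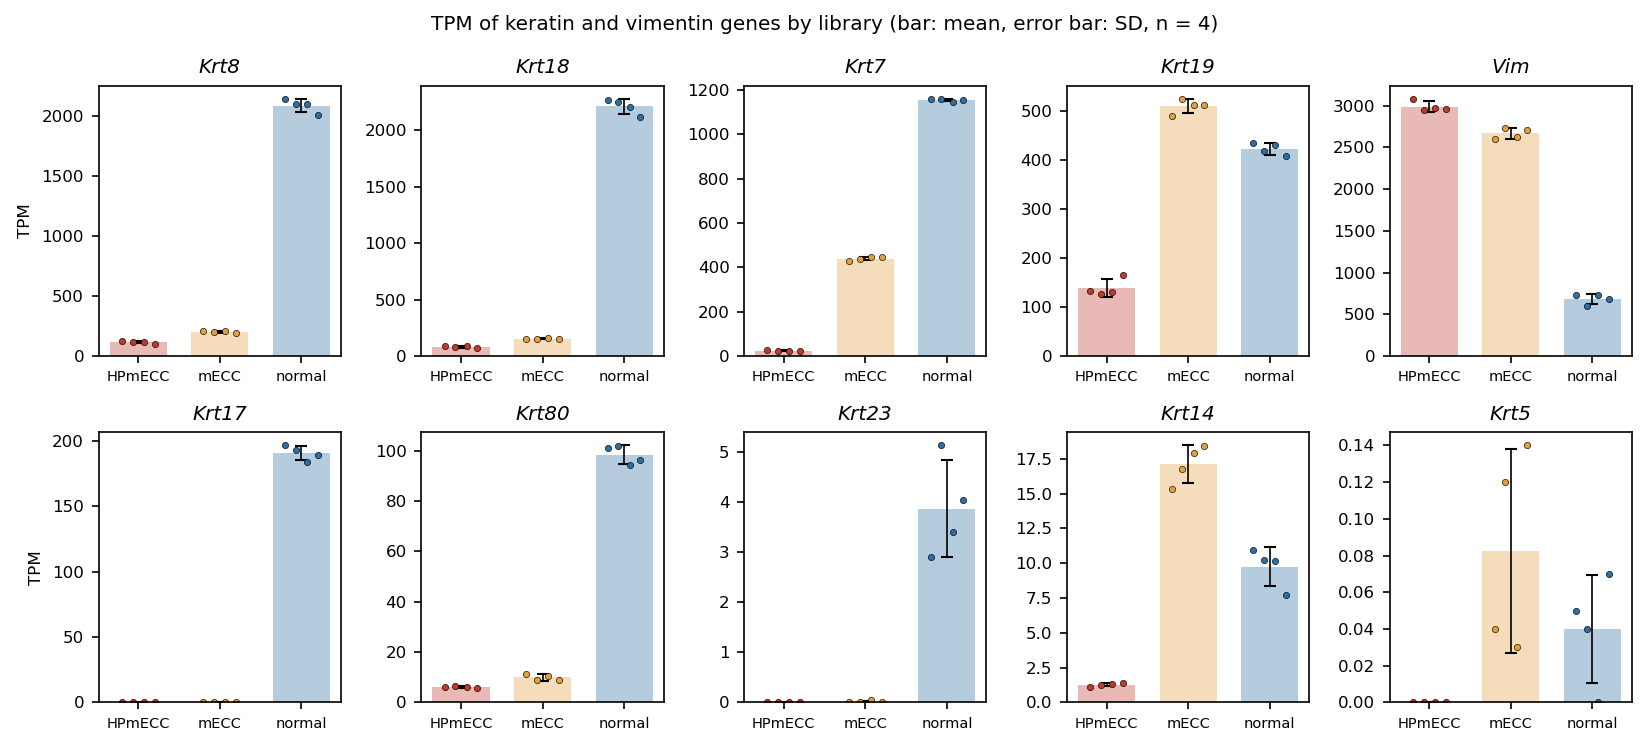
TPM of the 10 genes in HPmECC, mECC and normal libraries. Points are single libraries, bars the group mean, error bars the SD (n = 4), and each panel has its own vertical axis from 0. Krt8, Krt18, Krt7, Krt17, Krt80 and Krt23 stand highest in normal cells, Krt19 and Krt14 in mECC, and Vim in HPmECC; Krt5 stays at or below 0.14 TPM.

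The simple keratin pair Krt8 and Krt18 was the most abundant keratin pair in normal cells and was far lower in both cancer lines. Krt8 (ENSMUSG00000049382) had 122, 119, 114 and 102 TPM in HPmECC, 207, 199.5, 205 and 191 TPM in mECC, and 2140.1, 2095, 2096 and 2006 TPM in normal cells. Krt18 (ENSMUSG00000023043) had 87.0, 81.0, 84.2 and 66.5 TPM in HPmECC, 153, 148, 163 and 151 TPM in mECC, and 2269, 2256, 2206 and 2122 TPM in normal cells. For each gene the 3 groups were fully apart, with HPmECC lowest. By mean TPM Krt8 ranked 1438 among all genes in HPmECC and 780 in mECC, against 59 in normal cells. Krt18 ranked 2114 in HPmECC and 1023 in mECC, against 52 in normal cells.

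On the count scale Krt8 was 12.3-fold lower in mECC than in normal cells (log2FC -3.62 ± 0.04 SE, edgeR adjusted p = 2.97e-22) and a further 1.67-fold lower in HPmECC than in mECC (-0.74 ± 0.04 SE, edgeR adjusted p = 1.78e-11). Krt18 was 17.0-fold lower in mECC than in normal cells (-4.09 ± 0.06 SE, edgeR adjusted p = 3.14e-21) and 1.85-fold lower in HPmECC than in mECC (-0.89 ± 0.06 SE, edgeR adjusted p = 1.33e-10). HPmECC against normal cells, a comparison that shares the normal libraries with mECC against normal, gave -4.37 ± 0.05 SE for Krt8 and -4.98 ± 0.06 SE for Krt18, both called. Krt8 carries some uncertainty, because 26.9% of the 50-base windows of its transcripts also occur in the pseudogene Krt8-ps, which held 397 counts over all 12 libraries. The pair did not fall in exact step: the ratio of Krt18 to Krt8 TPM was 0.69 ± 0.04 in HPmECC and 0.77 ± 0.03 in mECC, against 1.06 ± 0.01 in normal cells (SD, n = 4 each). The lines' ranges of this ratio, 0.649 to 0.741 in HPmECC and 0.742 to 0.798 in mECC, nearly met, and both lay below the normal range of 1.05 to 1.08.

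Krt8 and Krt18 are neighbours on chromosome 15 of GRCm38, at 101996698 to 102004482 on the minus strand and 102028180 to 102032027 on the plus strand, with their starts 23.7 kb apart and facing away from each other. Krt7 lies on the same chromosome at 101411043 to 101430313 (plus strand), and Vim on chromosome 2 at 13573927 to 13582826 (plus strand). The RefSeq promoter windows of these 4 genes (GRCm38.p6, 250 bases before to 50 after the annotated start, 5′ to 3′ on the gene's strand; the RefSeq start lies inside the GENCODE gene in all 4) are shown because the 3 keratins and Vim moved in opposite directions. Capitals mark exact matches on either strand to CAGGTG (an E-box bound by Snail and Zeb repressors), TATAAA (the TATA box), CCAAT (the CCAAT box) and GGGCGG (the GC box); the AP-1 site TGACTCA was searched too. In Krt8 the 2 TATAAA matches, on opposite strands, overlap. The windows are chr15:102004293-102004592 for Krt8, chr15:102027966-102028265 for Krt18, chr15:101412153-101412452 for Krt7 and chr2:13574061-13574360 for Vim.
Krt8: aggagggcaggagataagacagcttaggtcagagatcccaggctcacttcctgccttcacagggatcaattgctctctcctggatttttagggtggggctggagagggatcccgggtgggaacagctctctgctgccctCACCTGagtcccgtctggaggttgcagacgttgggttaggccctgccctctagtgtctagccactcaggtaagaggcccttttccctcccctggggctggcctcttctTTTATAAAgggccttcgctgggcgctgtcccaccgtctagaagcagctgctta
Krt18: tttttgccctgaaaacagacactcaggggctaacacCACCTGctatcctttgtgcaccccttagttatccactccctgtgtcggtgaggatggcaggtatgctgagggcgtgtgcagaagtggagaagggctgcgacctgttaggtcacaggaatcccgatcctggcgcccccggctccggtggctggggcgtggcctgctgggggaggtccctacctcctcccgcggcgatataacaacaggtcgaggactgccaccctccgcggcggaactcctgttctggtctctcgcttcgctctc
Krt7: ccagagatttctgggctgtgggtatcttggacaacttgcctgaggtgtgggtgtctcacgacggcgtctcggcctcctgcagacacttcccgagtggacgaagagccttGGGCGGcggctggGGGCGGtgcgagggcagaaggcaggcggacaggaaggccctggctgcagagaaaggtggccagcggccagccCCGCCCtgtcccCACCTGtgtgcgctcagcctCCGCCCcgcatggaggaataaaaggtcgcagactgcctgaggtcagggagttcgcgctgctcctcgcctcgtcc
Vim: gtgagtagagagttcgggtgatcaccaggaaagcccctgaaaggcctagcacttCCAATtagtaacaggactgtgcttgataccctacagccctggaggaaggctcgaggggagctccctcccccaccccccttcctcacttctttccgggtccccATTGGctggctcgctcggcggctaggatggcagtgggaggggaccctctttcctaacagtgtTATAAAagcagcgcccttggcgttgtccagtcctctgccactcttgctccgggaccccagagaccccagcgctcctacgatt

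Each of the 3 keratin windows held 1 CAGGTG match, in Krt8 at position -111, in Krt18 at -214 and in Krt7 at -44 from the start, and the Vim window held none. Of the 7 genes of the set with a window, 5 held this motif (also Krt5 and Krt23), and so did 20.2% of all 32851 promoter windows. The keratin gene Krt14 held none, like Vim, so the motif did not separate all keratins from Vim. Krt17, Krt19 and Krt80 had no window. TATAAA was present in Krt8 and Vim and in 13.6% of all windows. CCAAT was present in Vim alone of the 7, with 2 matches, and in 37.4% of all windows. GGGCGG was present 4 times in Krt7 and in none of the other 6, against 35.7% of all windows, and TGACTCA in none of the 7, against 5.20%. A match describes the letters and not a bound site.

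Krt7 and Krt19, keratins of glandular and ductal epithelium, were kept at high levels in mECC and were much lower in HPmECC. Krt7 (ENSMUSG00000023039) had 24.6, 22.2, 24.3 and 22.6 TPM in HPmECC, 428, 438, 446 and 446 TPM in mECC, and 1159.7, 1159, 1147 and 1154 TPM in normal cells. Krt19 (ENSMUSG00000020911, chromosome 11 at 100140810 to 100148665, minus strand) had 133, 126, 131 and 165 TPM in HPmECC, 491, 525, 513 and 512 TPM in mECC, and 434, 418, 432 and 409 TPM in normal cells. Krt7 set the 3 groups apart in the same order as Krt8, whereas Krt19 TPM was highest in mECC and its HPmECC libraries lay below all others.

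Krt7 fell 19.6-fold in HPmECC relative to mECC (log2FC -4.29 ± 0.03 SE, edgeR adjusted p = 1.18e-24) and 3.26-fold in mECC relative to normal cells (-1.70 ± 0.02 SE, edgeR adjusted p = 2.47e-21). HPmECC against normal cells gave -6.00 ± 0.03 SE for Krt7. Krt19 fell 3.42-fold in HPmECC relative to mECC (-1.78 ± 0.05 SE, edgeR adjusted p = 9.10e-16) and 3.40-fold relative to normal cells (-1.76 ± 0.05 SE, edgeR adjusted p = 1.10e-16). Between mECC and normal cells Krt19 was not called on the count scale (0.01 ± 0.05 SE, edgeR adjusted p = 0.827). That result depended on scaling: it was called higher in mECC with library totals in place of TMM factors (0.25, edgeR adjusted p = 5.33e-05) and by limma on log2(TPM + 1) (0.27, limma adjusted p = 0.00169), while median-of-ratios factors and DESeq2 both gave -0.01.

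**Figure D2:**
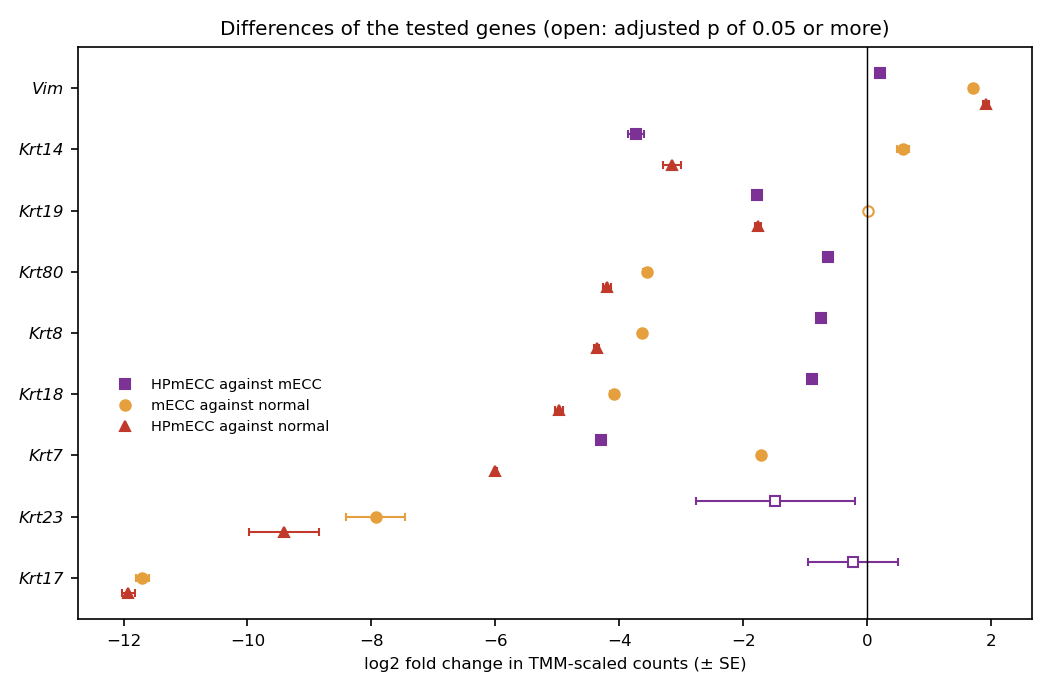
log2 fold changes of the 9 tested genes from TMM-scaled counts, with standard errors on the horizontal axis, for HPmECC against mECC (squares), mECC against normal cells (circles) and HPmECC against normal cells (triangles). Open symbols were not called; Krt8, Krt18 and Krt80 differ mainly between normal cells and both lines, whereas Krt7, Krt19 and Krt14 differ strongly between the lines.

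Among the keratins of stratified and stressed epithelium, Krt17 and Krt23 were nearly absent from both lines, Krt80 was reduced in both, and Krt14 was kept in mECC. Krt17, a keratin of hair follicles and injured skin (ENSMUSG00000035557, chromosome 11 at 100256217 to 100261029), had 0, 0.09, 0 and 0.09 TPM in HPmECC, 0.05, 0.09, 0.05 and 0.05 TPM in mECC, and 197, 194, 184 and 189 TPM in normal cells. This amounts to 4 counts over the HPmECC libraries and 5 over the mECC libraries, against 13337 in normal cells. The fitted log2 fold change was -11.92 ± 0.10 SE (edgeR adjusted p = 2.74e-24) for HPmECC and -11.69 ± 0.10 SE (edgeR adjusted p = 5.02e-24) for mECC against normal cells, and the lines were not called apart (-0.23 ± 0.73 SE, edgeR adjusted p = 0.827). Krt17 and Krt23 passed the filter on low counts only through the normal libraries, so their direction against normal cells was set by the filter. Krt23, another type I keratin (ENSMUSG00000006777, chromosome 11 at 99477974 to 99493137), was scarce throughout, with 0 counts in HPmECC, 1 in mECC and 279 in normal cells, where it had 2.90, 5.14, 3.41 and 4.05 TPM. HPmECC was thus at least 123-fold below normal cells, taking a floor of 3 counts over the 4 libraries, and the ratio of normal cells to mECC had a 95% exact counting interval of 68.5 to 15253, for counting error only. Without mECC replicate 3, which held the single count, the fitted log2 fold change of mECC against normal cells was -9.38 in place of -7.93.

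Krt80, a type II keratin of differentiating epithelia (ENSMUSG00000037185, chromosome 15 at 101347444 to 101370162), kept a low level in the lines. It had 6.21, 6.52, 6.31 and 5.65 TPM in HPmECC, 11.4, 8.98, 10.5 and 8.71 TPM in mECC, and 101, 102, 94.2 and 96.4 TPM in normal cells. Its changes were close to those of Krt8: 11.8-fold lower in mECC than in normal cells (log2FC -3.56 ± 0.06 SE, edgeR adjusted p = 1.34e-20), 18.3-fold lower in HPmECC than in normal cells (-4.20 ± 0.06 SE) and 1.56-fold lower in HPmECC than in mECC (-0.64 ± 0.07 SE, edgeR adjusted p = 4.46e-07).

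The basal pair was incomplete in every group. Krt14 (ENSMUSG00000045545, chromosome 11 at 100203162 to 100207548) had 1.12, 1.23, 1.3 and 1.39 TPM in HPmECC, 15.3, 16.8, 17.9 and 18.4 TPM in mECC, and 10.97, 10.22, 10.16 and 7.69 TPM in normal cells. It was 13.2-fold lower in HPmECC than in mECC (log2FC -3.73 ± 0.13 SE, edgeR adjusted p = 1.67e-14) and 1.49-fold higher in mECC than in normal cells (0.58 ± 0.09 SE, edgeR adjusted p = 1.62e-05). HPmECC against normal cells gave -3.15 ± 0.14 SE (edgeR adjusted p = 1.02e-13). Its usual type II partner Krt5 (ENSMUSG00000061527, chromosome 15 at 101707070 to 101712898) had 0 counts over the HPmECC libraries, 10 over the mECC libraries and 4 over the normal libraries, and did not pass the filter on low counts. Krt14 also carries some uncertainty, because 13.9% of the 50-base windows of its transcripts also occur in Krt16 or Krt17, which RSEM had to divide. On the log2(TPM + 1) scale, which shrinks changes of low genes, the fold changes of Krt14 in HPmECC were -3.00 against mECC and -2.24 against normal cells. The same scale gave -7.52 and -7.50 for Krt17 and -2.26 and -2.25 for Krt23, in HPmECC and mECC against normal cells. All 6 of these values were called by limma, with the direction of Krt17 and Krt23 set by the filter.

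Vim was among the most abundant transcripts of both lines and was lower in normal cells. It (ENSMUSG00000026728) had 3083, 2945, 2969 and 2963 TPM in HPmECC, 2604, 2736, 2629 and 2707 TPM in mECC, and 726, 598, 729 and 685 TPM in normal cells. All HPmECC libraries exceeded all mECC libraries, and these exceeded all normal libraries. By mean TPM Vim ranked 35 of 55385 genes in HPmECC, 39 in mECC and 229 in normal cells. Vim was 3.27-fold higher in mECC than in normal cells (log2FC 1.71 ± 0.05 SE, edgeR adjusted p = 4.09e-17), 3.77-fold higher in HPmECC than in normal cells (1.92 ± 0.05 SE, edgeR adjusted p = 7.53e-18) and only 1.15-fold higher in HPmECC than in mECC (0.20 ± 0.04 SE, edgeR adjusted p = 5.19e-04). The small difference between the lines was called under every alternative run, with log2 fold changes from 0.16 to 0.22 and adjusted p-values of at most 0.0156.

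Counted together, 6 of the 9 tested genes were lower and 1 (Vim) higher in HPmECC than in mECC, where 34.5% of all tested genes were called lower and 33.8% higher. At least 2-fold lower were Krt7, Krt14 and Krt19, 3 of the 9, against 9.40% of all tested genes. In mECC against normal cells 6 were lower and 2 (Vim and Krt14) higher, against 44.2% and 42.1% of all tested genes. All 6 were at least 2-fold lower, against 22.8% of all tested genes. In HPmECC against normal cells all 8 tested keratins were lower, each at least 2-fold, and Vim was higher; 43.3% of all tested genes were lower, 23.0% at least 2-fold lower and 43.0% higher. The median log2 fold change of the 9 genes was -0.89, -3.56 and -4.37 in HPmECC against mECC, mECC against normal cells and HPmECC against normal cells, beside 0.00, -0.02 and 0.00 over all tested genes. Krt17 and Krt23 passed the filter only through the normal libraries, so they could only be lower in the lines. Scaling by library totals moved the median of all genes by 0.24 in mECC and by 0.20 in HPmECC against normal cells, and it gave 7866 higher and 5453 lower genes in mECC in place of 6436 and 6748, and 7725 higher and 5583 lower genes in HPmECC in place of 6575 and 6625.

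Vimentin outweighed the keratins in both lines, and the reverse held in normal cells. The summed TPM of all 54 keratin genes was 404 to 418 in HPmECC, 1402 to 1452 in mECC and 6052 to 6380 in normal cells. Vim stood at 8.39 ± 0.05 times the summed TPM of Krt7, Krt8, Krt18 and Krt19 in HPmECC and at 2.05 ± 0.05 times in mECC, against 0.12 ± 0.01 times in normal cells (SD, n = 4 each). The lowest HPmECC ratio was 8.32 and the highest mECC ratio 2.09, so the lines were set apart by their keratins far more than by Vim itself.

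**Figure D3:**
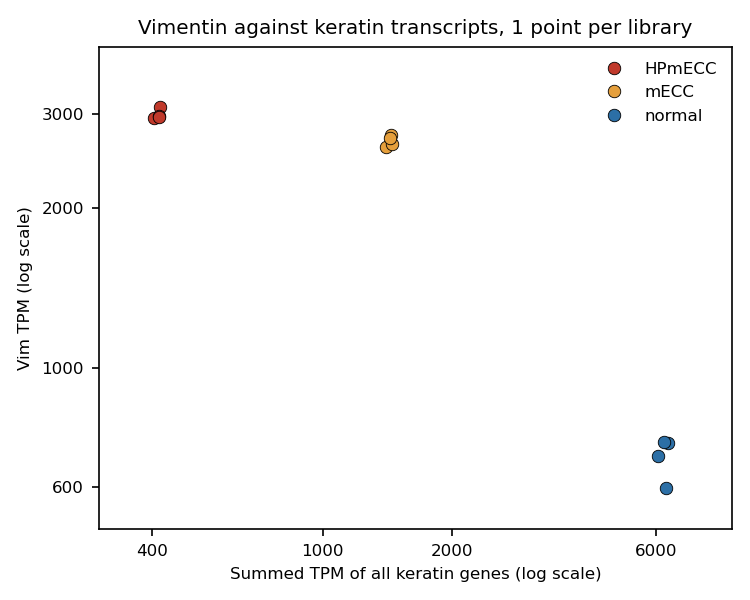
Vim TPM against the summed TPM of all 54 keratin genes, both on log axes, with 1 point for each of the 12 libraries. The 3 groups form separate clusters: HPmECC at 404 to 418 keratin TPM, mECC at 1402 to 1452 and normal cells at 6052 to 6380, with Vim highest in HPmECC.

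The make-up of the remaining keratin transcripts differed between the lines as well. In HPmECC Krt19 supplied 33.6% ± 4.02 of keratin TPM, Krt8 27.7% ± 2.24, Krt18 19.3% ± 2.23, Krt13, a keratin outside the set, 8.57% ± 0.87 and Krt7 5.68% ± 0.24 (SD, n = 4). In mECC Krt19 also led, with 35.7% ± 0.65, but Krt7 came next with 30.7% ± 0.29, ahead of Krt8 with 14.0% ± 0.59, Krt18 with 10.8% ± 0.42 and Krt13 with 4.36% ± 0.17. In normal cells Krt18 with 35.4% ± 0.30 and Krt8 with 33.4% ± 0.23 led, and Krt7 supplied 18.5% ± 0.39 and Krt19 6.78% ± 0.12. The 9 keratins followed here made up 87.3 to 89.6% of keratin TPM in HPmECC, 92.7 to 93.4% in mECC and 98.9 to 99.0% in normal cells.

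The balance of the keratin types moved with these shares. Type I keratins stood at 1.82 ± 0.19 times the type II keratins in HPmECC and at 1.15 ± 0.02 times in mECC, against 0.86 ± 0.01 times in normal cells, in TPM over all keratin genes (SD, n = 4). Single libraries reached 1.68 to 2.09 in HPmECC, 1.12 to 1.17 in mECC and 0.844 to 0.865 in normal cells, without overlap. HPmECC replicate 4 stood apart from its group, with Krt19 at 2.48 times Krt18 against 1.53 to 1.56 times in the other 3. Leaving this library out changed no call among the 9 tested genes.

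**Figure D4:**
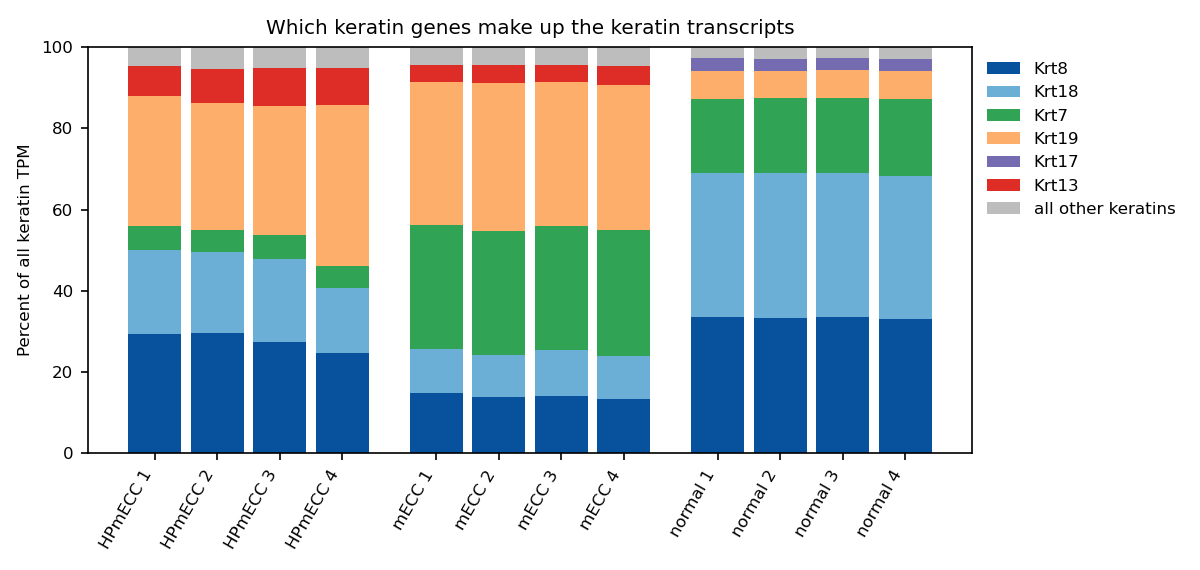
Share of all keratin TPM taken by each named keratin gene in every library, as stacked bars that add up to 100%. Krt7 takes 5.45 to 5.89% of the HPmECC bars and 30.5 to 31.1% of the mECC bars, and in normal cells Krt8 takes 33.2 to 33.6% and Krt18 35.1 to 35.8%.

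Of the 45 other keratin genes, 16 passed the filter on low counts. In HPmECC against mECC 3 were higher and 10 lower, beside 33.8% and 34.5% of all tested genes. Some of these directions were set by the filter. Krt36 and Krt6a had no HPmECC library over its cutoff and could only be lower in HPmECC. Krt78 passed only through HPmECC and could only be higher there. Krt4, Krt6b, Krt25 and Krt84, also called, had at most 15 counts in either line. In each line against normal cells 7 of the 16 were higher and 8 lower, shares near those over all tested genes (42.1% and 44.2% in mECC, 43.0% and 43.3% in HPmECC). The filter itself set the direction against normal cells for most of them. Krt4, Krt6b, Krt12, Krt25 and Krt84 passed only through the normal libraries, and Krt13, Krt15, Krt36, Krt78, Krt79 and Krt83 only through libraries of the lines (Krt36 only mECC, Krt78 only HPmECC). The most abundant of them in both lines was Krt13, a keratin of moist stratified linings such as the mouth, with 31.1, 33.8, 39.2 and 37.4 TPM in HPmECC, 60.2, 62.8, 60.8 and 65.6 TPM in mECC, and 0, 0.26, 0 and 0.04 TPM in normal cells. This was 2165 and 3288 counts in HPmECC and mECC against 6 counts in normal cells (log2FC 7.997 ± 0.22 SE, edgeR adjusted p = 5.03e-17 for HPmECC; 8.54 ± 0.20 SE, edgeR adjusted p = 5.79e-18 for mECC). Krt13 was 1.46-fold lower in HPmECC than in mECC (-0.54 ± 0.07 SE, edgeR adjusted p = 2.68e-06).

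Krt20, a keratin of gut and bladder surface cells, went the other way, with 0.36, 0.37, 0.15 and 0.55 TPM in HPmECC, 0.51, 0.54, 0.60 and 0.83 TPM in mECC, and 28.18, 28.85, 27.96 and 24.96 TPM in normal cells. It was 82.0-fold lower in HPmECC (log2FC -6.36 ± 0.14 SE) and 52.4-fold lower in mECC (-5.71 ± 0.13 SE) than in normal cells, and the lines were not called apart (-0.65 ± 0.29 SE, edgeR adjusted p = 0.0537). Krt6a and Krt16 are partners in healing and overactive skin. Krt6a was 52.8-fold lower in HPmECC than in mECC (-5.72 ± 0.17 SE, edgeR adjusted p = 1.86e-15), with 18 counts against 1021. Krt6a had no HPmECC library over the filter's cutoff, so it could only be lower in HPmECC than in either other group. Against normal cells Krt6a was 137-fold lower in HPmECC (-7.10 ± 0.15 SE, edgeR adjusted p = 8.08e-19) and 2.601-fold lower in mECC (-1.38 ± 0.08 SE, edgeR adjusted p = 2.56e-12). Krt16 was 2.33-fold lower in HPmECC than in mECC (-1.22 ± 0.10 SE, edgeR adjusted p = 1.91e-09) and 2.05-fold higher in mECC than in normal cells (1.04 ± 0.10 SE, edgeR adjusted p = 1.05e-08), and was not called in HPmECC against normal cells (-0.18 ± 0.11 SE, edgeR adjusted p = 0.126).

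**Figure D5:**
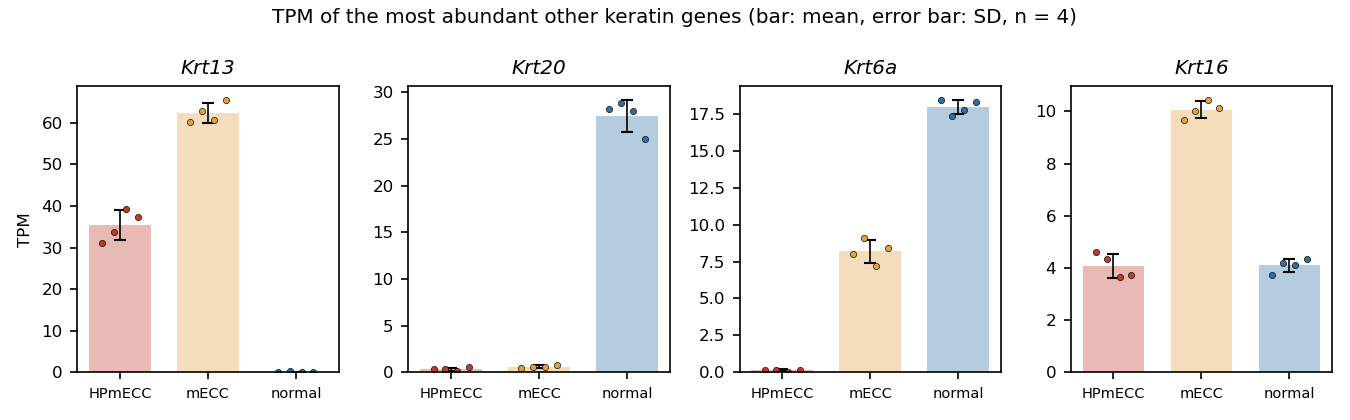
TPM of the 4 most abundant other keratin genes, with 1 point per library, bars for the group mean and error bars for the SD (n = 4). Krt13 is present in both lines at 31.1 to 65.6 TPM and at most at 0.26 TPM in normal cells, and Krt20 shows the opposite pattern.

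Among 15 other intermediate filament genes 9 were tested, and 8 of them were higher and 0 lower in HPmECC than in mECC, beside 33.8% and 34.5% of all tested genes. Prph passed the filter only through HPmECC and could only be higher there. Bfsp1 had no mECC library over the filter's cutoff, so it could only be higher in HPmECC than in mECC. The muscle filament gene Des was 6.76-fold higher (10.8 ± 1.07 CPM in HPmECC against 1.59 ± 0.12 CPM in mECC; log2FC 2.76 ± 0.13 SE, edgeR adjusted p = 1.27e-12). The progenitor cell filament gene Nes was 2.22-fold and Synm, which encodes a large filament linker protein, 2.20-fold higher. In mECC against normal cells 3 were higher and 5 lower (42.1% and 44.2% of all tested genes), and in HPmECC against normal cells 5 were higher and 3 lower (43.0% and 43.3%). The median log2FC was 1.14 in HPmECC against mECC, -0.15 in mECC against normal cells and 0.23 in HPmECC against normal cells. Relative to normal cells, mECC had 123-fold less Des, 7.44-fold less Nes and 7.44-fold more Synm. In HPmECC, Des was 18.3-fold and Nes 3.34-fold lower and Synm 16.4-fold higher than in normal cells. Des, like the rest of the smooth muscle markers, was highest in the normal cultures.

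The genes that tie keratin filaments to the cell surface were mostly lower in the lines. Of 17 filament linker genes, all tested, 2 were higher and 14 lower in HPmECC than in normal cells, beside 43.0% and 43.3% of all tested genes, with a median log2FC of -2.45. In mECC against normal cells 3 were higher and 14 lower, beside 42.1% and 44.2% of all tested genes, with a median of -2.17. Desmoplakin (Dsp), which anchors keratins at desmosomes, averaged 3.44 CPM in HPmECC libraries and 19.2 CPM in mECC libraries, against 337 CPM in normal ones (log2FC -6.63 ± 0.06 SE, edgeR adjusted p = 6.36e-24 for HPmECC; -4.13 ± 0.05 SE, edgeR adjusted p = 1.76e-22 for mECC). The desmosomal cadherin genes Dsg2 and Dsc2 were 20.8-fold and 71.5-fold lower in mECC than in normal cells. In HPmECC they were 12.5-fold and 40.9-fold lower than in normal cells, but 1.65-fold and 1.75-fold higher than in mECC, all called. Between the lines 7 linker genes were higher and 9 lower in HPmECC, beside 33.8% and 34.5% of all tested genes. The envoplakin gene Evpl was 29.9-fold, the integrin gene Itgb4 6.77-fold and the plakophilin gene Pkp3 6.08-fold lower in HPmECC. Evpl had no HPmECC library over the filter's cutoff, so it could only be lower in HPmECC. Plec encodes the linker plectin, which binds vimentin as well as keratins. Its level in HPmECC exceeded that of mECC by 1.38-fold (0.47 ± 0.05 SE, edgeR adjusted p = 4.97e-08). Unlike Vim, Plec was highest in normal cells, at 633 CPM against 435 CPM in HPmECC and 315 CPM in mECC. Plec was named after its value was seen.

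Transcription and splicing regulators of the epithelial and mesenchymal states numbered 20, of which 18 were tested. In HPmECC 4 were higher and 12 lower than in mECC, beside 33.8% and 34.5% of all tested genes. In each line against normal cells 8 were higher and 10 lower, shares not far from those over all tested genes (42.1% and 44.2% in mECC, 43.0% and 43.3% in HPmECC). The 8 were the same in both lines: Snai1, Snai2, Zeb1, Zeb2, Twist1, Twist2, Trp63 and Tfap2a. The 10 lower were Klf4, Klf5, Grhl1, Grhl2, Ovol1, Ovol2, Elf3, Ehf, Esrp1 and Esrp2. The counts and the medians below thus pool genes of opposite direction. Zeb1 averaged 96.3 CPM in HPmECC and 66.3 CPM in mECC, against 16.1 CPM in normal cells. Twist1 averaged 41.3 and 35.3 CPM, against 7.46 CPM. Zeb1 and Twist1 were named after their values were seen. Ovol1 passed the filter only through the normal libraries and Trp63 only through the lines, so their direction against normal cells was set by the filter. Esrp1, Grhl2 and Ovol2 had no HPmECC library over the filter's cutoff, so they could only be lower in HPmECC than in either other group. The median log2FC was -0.93 in HPmECC against mECC, -0.88 in mECC against normal cells and -2.40 in HPmECC against normal cells. The splicing regulator gene Esrp1 was 377-fold, Grhl2, a keeper of epithelial identity, 46.6-fold and Ehf 15.5-fold lower in HPmECC than in mECC. Snai2, a repressor of epithelial genes, was 22.6-fold higher in mECC than in normal cells (103 against 4.55 CPM; log2FC 4.50 ± 0.07 SE, edgeR adjusted p = 2.45e-20) and 2.14-fold lower in HPmECC than in mECC. Other repressors of the kind, named after their values were seen, differed in direction between the lines: in HPmECC Snai1 was 4.51-fold and Zeb1 1.45-fold higher and Zeb2 1.12-fold lower than in mECC, all called. Ovol1, a repressor of mesenchymal genes, was 130-fold lower in mECC than in normal cells.

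Markers of squamous and basal epithelium were mixed in direction. The 10 genes summed to 221 to 261 CPM in HPmECC, 1514 to 1643 CPM in mECC and 565 to 579 CPM in normal cells, with Dsc3 at 0 counts in both lines. Sprr1a alone set that order: the other 9 summed to 79.2 to 90.1 CPM in HPmECC and 98.4 to 104 CPM in mECC, against 495 to 508 CPM in normal cells. Of the 8 tested, 4 rose and 4 fell in mECC relative to normal cells, near the 42.1% and 44.2% over all tested genes, with a median log2FC of -1.30. In HPmECC 3 rose and 4 fell relative to normal cells (43.0% and 43.3% of all tested genes), and 1 rose and 5 fell relative to mECC (33.8% and 34.5%). Dsg3 and Ivl passed the filter only through the normal libraries and Trp63 only through the lines, so their direction against normal cells was set by the filter. Trp63, the master regulator of stratified epithelium, averaged 6.99 CPM in HPmECC libraries and 11.96 CPM in mECC libraries, against 0.14 CPM in normal ones, which was 77.5-fold higher in mECC (log2FC 6.28 ± 0.20 SE, edgeR adjusted p = 3.52e-16). Sprr1a, a precursor of the cornified envelope, averaged 1460 CPM in mECC, against 72.4 CPM in normal cells (4.33 ± 0.07 SE, edgeR adjusted p = 3.62e-20). Dsg3, the cadherin gene of basal desmosomes, was 109-fold lower in mECC than in normal cells.

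Across the 12 libraries the genes most like Krt8, by Pearson correlation of log2(CPM + 1), were Tmsb4x, which encodes an actin-binding peptide (r = 0.9998), Krt18 (r = 0.9997) and the protease inhibitor gene Serpinb9b (r = 0.9997). Those most like Vim were the matrix genes Efemp2 (r = 0.9993) and Mgp (r = 0.9987) and the protease gene Htra1 (r = 0.9988). Mgp had 371 ± 17.7 CPM in HPmECC and 247 ± 22.0 CPM in mECC, against 5.05 ± 0.92 CPM in normal cells. These values are a description: with 3 groups of 4 libraries that differ in most genes, the points share their groups. Krt5 had too few counts for such a comparison. Among the keratins themselves, Krt19 was closest to Krt14 (r = 0.98) and less close to Krt18 (r = 0.63).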

How the data were processed

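The authors deposited estimated counts (RSEM expected counts, whole numbers in the file), TPM and FPKM per Ensembl gene for 12 mRNA libraries. The submitters' processing notes name Trim Galore, STAR 2.6.1a, RSEM 1.3.1 and GRCm38; annotation release, strand setting, read length: not given in the sources used here. Deposited TPM values are scaled by the authors to transcript length and a fixed sum. FPKM was not used here. RSEM divides reads shared between similar genes: beside Krt8 and Krt14, 3.99% of the 50-base windows of Krt17 transcripts occur in related keratins, and 0.72% or fewer for Krt7, Krt18, Krt19, Krt23, Krt80 and Vim. Krt5 (8.52%) was too low to test. Without a strand setting, overlap with opposite-strand genes at Krt5, Krt7, Krt8 and Krt80 is uncertain; those genes held 0, 48, 121 and 407 counts.

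Of 55385 identifiers 55144 had a symbol. Differences were tested with edgeR 4.0.16 (R 4.3.3): quasi-likelihood test, 1 coefficient per group over 12 libraries, TMM factors, filterByExpr with a minimum of 10 counts, Benjamini-Hochberg adjustment over 15283 genes. The fit was tested on simulated counts in which few genes differed between the lines. That setting differs from these data, where most tested genes were called in each comparison. CPM values are TMM-scaled, and SE values derive from the F statistic. Alternatives used limma 3.58.1 on log2(TPM + 1) and log2(TPM + 0.1), DESeq2 1.42.0, other scaling, filters, sample sets, the replicate block and each library left out. Replicates of a group differed by more than counting noise (chi-square per degree of freedom from 2.50 to 6.66), so none was merged. Named genes beside the set were per list and comparison up to 3 called genes of largest fold change among those reaching 5 CPM, of which only some are described, the 4 most abundant other keratins, and the 3 genes most like Krt8 and Vim. Zeb1, Zeb2, Snai1, Twist1, Plec and Foxa2 were given with values outside this rule, after these values had been seen. Gene positions came from GENCODE M21. The genes and lists were chosen with earlier results of these data known.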

Additional observations from a re-analysis of the deposited data

Results flagged for a closer look

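Of 61 sets of 4 libraries checked for a library far from the other 3 (gap over range above Dixon's 95% critical value), 5 were picked out; chance alone picks about 1 in 20. The ratio of Krt19 to Krt18 TPM was 2.48 in HPmECC replicate 4, against 1.53 to 1.56 in the other HPmECC libraries. The ratio of Vim to summed Krt7, Krt8, Krt18 and Krt19 was 0.101 in normal replicate 2, against 0.120 to 0.124 in the other normal libraries. The remaining 3 concern genes near 0: Krt13 at 0.26 TPM in normal replicate 2 against at most 0.04, Krt17 at 0.09 TPM in mECC replicate 2 against 0.05, and Krt23 at 0.04 TPM in mECC replicate 3 against 0.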

How the results depend on the processing

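Over 21 alternatives, 554 recomputed differences of the tested genes kept direction and side of the threshold, 3 passed it anew, 5 changed sign and 0 lost a call. Krt19 in mECC against normal cells gave log2 fold changes of -0.0117 with median-of-ratios factors and -0.0118 with DESeq2, and was called higher with library totals (0.25) and with limma on log2(TPM + 1) and log2(TPM + 0.1) (both 0.27); the cause was not tested beyond the scaling itself. Krt17 in HPmECC against mECC, with 4 and 5 counts, was never called and turned to 0.02 without mECC replicate 2, to 0.12 without HPmECC replicate 1 and to 0.05 without HPmECC replicate 3, within a range of -0.68 to 0.12 over single libraries left out. Counts of called genes stayed within 1.5 times of the main counts in every alternative. With CPM in place of TPM the summed Krt7, Krt8, Krt18 and Krt19 was 313 in HPmECC, 1255 in mECC and 6777 in normal cells, and Vim stood at 7.63, 1.65 and 0.0934 times that sum. On log2(TPM + 0.1) Krt17 gave -10.44 and -10.23, and Krt23 -5.28 and -5.16, for HPmECC and mECC against normal cells.

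Same-numbered libraries were not shown to be paired: none of 12 correlations of their deviations exceeded 0.1 (from -0.03 to 0.08), and 6 of 12 were highest with their own number. With the replicate number as a block, 5111 genes were higher and 5210 lower in HPmECC than in mECC, 6405 and 6718 in mECC against normal cells, and 6539 and 6607 in HPmECC against normal cells, and no call of a tested keratin or of Vim changed. Depth limits Krt5, Krt17 and Krt23 in the lines, where each had 0 to 10 counts per group.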
